A study of Mus musculus with 6 samples.

Results

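The genes described here are the interleukin 6 family in healing bone: the ligands Il6, Lif, Osm and Il11, the receptors Il6ra, Il6st, Lifr and Osmr, the transcription factor Stat3 and its inhibitor Socs3. Every probe set whose only listed symbol is one of these 10 genes was taken, which gave 24 of the 45037 probe sets on the array. The family was chosen by the null and heterozygous values of Il6, which earlier work on these arrays had shown, so the group differences below are a description and support nothing beyond themselves. The samples were callus, the repair tissue at a break, taken at day 14 after a tibial osteotomy held by an intramedullary rod. The mice were 12 weeks old and their background was C57BL6J x 129SV mixed. One group was Cyp24a1 (-/-), called null here, and the other Cyp24a1 (+/-) littermates, called heterozygous, with 3 arrays each; Cyp24a1 codes for the hydroxylase that degrades active vitamin D, and no wild-type group was analysed here. The controls thus carry 1 disrupted allele themselves, and the labels do not say whether the samples of a group are all from different mice. High Xist and low Eif2s3y marked null replicate 1 and heterozygous replicate 1, with the reverse on the other 4 arrays, so each group held animals of both sexes and the spread within it is not technical alone.

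Cytokines of this family signal through gp130, the shared receptor subunit encoded by Il6st. Each ligand brings gp130 together with a partner: interleukin 6 with the receptor encoded by Il6ra, leukaemia inhibitory factor with that of Lifr, and oncostatin M, in the mouse, mainly with that of Osmr. The bound complex activates JAK kinases and STAT3, and STAT3 induces Socs3, whose product binds gp130 and shuts the signal off. In bone these cytokines come from osteoblast lineage cells, marrow stroma and macrophages, and they act on osteoblasts and, through RANKL, on osteoclast formation.

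Promoter sequence is shown for the ligand on which the comparison turns, Il6, and for the members whose upstream region held a match to a motif of the pathway or of inflammatory induction. The sequences are those of RefSeq on GRCm38.p6, which held 11 windows for 9 of the 10 members, and each window covers the 250 bases before an annotated start. Capitals mark matches, on either strand, to TTCNNNGAA (the STAT dimer site), GGANTTTCC (NF-kB), TGAGTCA (AP-1), TGACGT (the core of the cAMP response element) and TATAAA. For Il6 the whole window is given, at chr5:30012864-30013113 on the plus strand, and it holds the AP-1, cAMP response and NF-kB forms in that order.
Il6: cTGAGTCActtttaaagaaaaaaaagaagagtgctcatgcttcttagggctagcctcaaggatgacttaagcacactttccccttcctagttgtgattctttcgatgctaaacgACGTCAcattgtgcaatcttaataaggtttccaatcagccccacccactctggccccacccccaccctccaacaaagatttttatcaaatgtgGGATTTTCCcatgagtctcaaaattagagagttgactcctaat
For the other members with a match, only the bases around it are given, at chr11:4257329-4257357 (plus strand) for Lif, chr7:4778222-4778250 (minus strand) for Il11 and chr11:117969501-117969531 (minus strand) for Socs3.
Lif: ccagtcagctgTGACTCAggccatagtgg
Il11: aggagggagggTGAGTCAggatgtgtcag
Socs3: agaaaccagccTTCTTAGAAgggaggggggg
The AP-1 form was found upstream of the 3 ligands Il6, Lif and Il11, in 3 of the 11 windows, against 4.46% of all 32851 windows of this length. GGANTTTCC, found for Il6, occurs in 1.07% of all windows, and TGACGT, also found for Il6, in 6.47%. The STAT form was found in 1 of the 11 windows, that of Socs3, against 7.02% of all. TATAAA, present in 12.4% of all, was found in 0 of the 11. A match describes the letters in the window and does not show that a factor binds there.

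Values are log2 levels as the authors deposited them, and the direction is always null minus heterozygous. Since probes differ in how strongly they bind, no level is compared between probe sets. To tell a level from background, each array was given a floor guide, the 95th percentile of its 83 probe sets for olfactory, vomeronasal and taste receptors, genes taken here as silent in callus; it lay between 3.49 and 3.77. Of the 24 probe sets, 20 were above the guide on all 6 arrays, which 57.5% of all probe sets were, 2 on some arrays and 2 on none. The array medians were 4.55 to 4.59 and Pearson's r between arrays, across probe sets, was 0.970 to 0.991. Bone matrix genes (7 of 7 markers) and skeletal muscle genes (6 of 6) were above the guide on every array, and of 5 cartilage markers only Col10a1 was not, on null replicate 1 (3.11). A marrow score, which averages marker genes of neutrophils and erythroid cells after centring each over the arrays, was -2.38 on null replicate 1, -2.51 on heterozygous replicate 3 and between 0.97 and 1.47 on the other 4; those first 2 arrays are called marrow-poor below. Cyp24a1, the targeted gene, read 3.65, 3.20 and 3.23 in null and 2.71, 2.89 and 3.10 in heterozygous tissue by probe set 1418866_at, higher in null without overlap (difference 0.46, SE 0.17), but above the guide only on null replicate 1. By 1418867_at it was above the guide on 0 of 6 arrays, with a difference of -0.07 (SE 0.18). These levels do not show the loss that the null label implies, and the labels do not give the disrupted part of the gene relative to the probe sets, so they do not check the labels.

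Il6 read above the floor guide in null callus only, and close to it. Its probe set 1450297_at read 3.77, 3.68 and 3.91 on the null arrays and 2.94, 2.87 and 2.71 on the heterozygous arrays. All 3 null values lay above all 3 heterozygous values, by more than the spread within either group. The null mean was 3.79 ± 0.12 (SD, n = 3) and the heterozygous mean 2.84 ± 0.12 (SD, n = 3). They differed by 0.94 (SE 0.12). The null values exceeded the floor guide of their arrays by 0.09 to 0.38, while the heterozygous values lay below theirs, at margins of -0.90 to -0.55. The heterozygous level is therefore only bounded, and against the guide the null mean was at least 1.14-fold higher; that bound rests on the level of unrelated probe sets and has no error. With the 99th percentile as the guide, 4.10 to 4.29, Il6 was above it on 0 of 6 arrays. The difference lay between 0.88 and 0.998 when each array was left out in turn, and was 0.89 without null replicate 1 and heterozygous replicate 3.

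**Figure D1:**
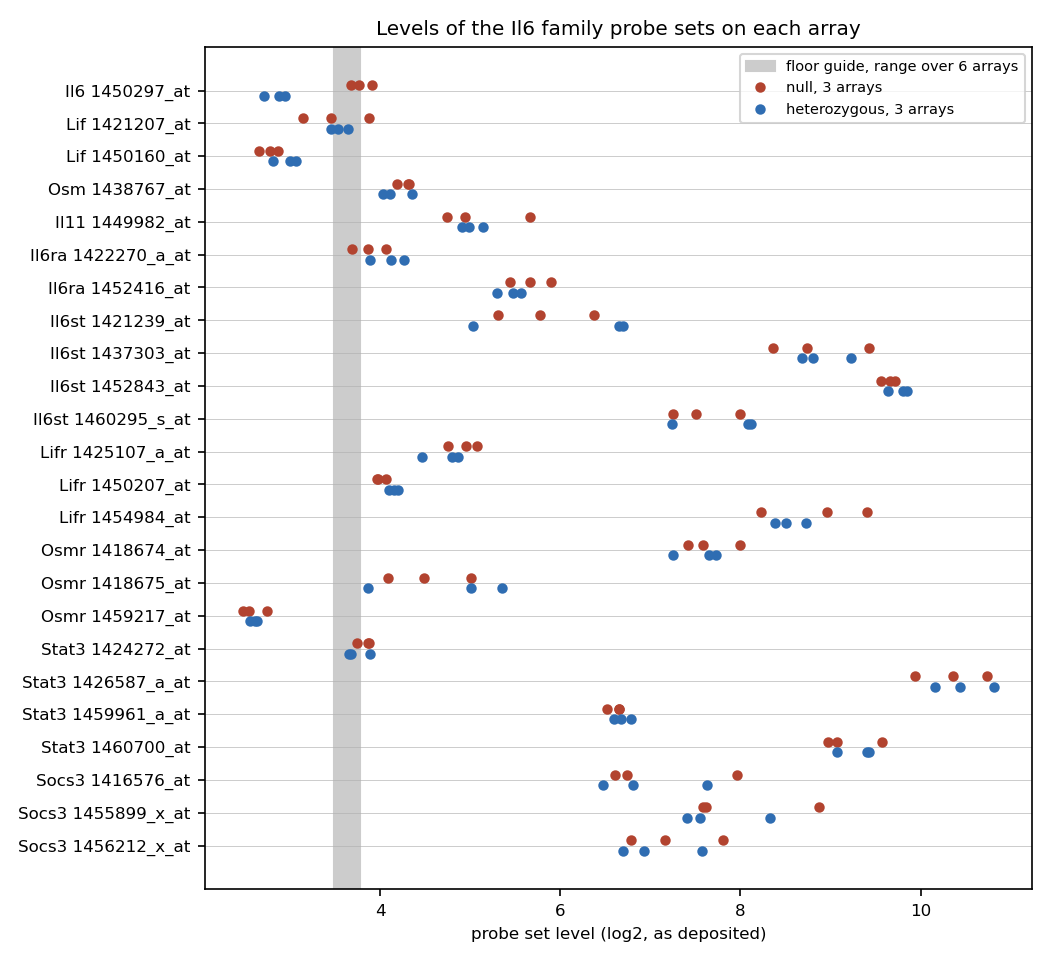
Log2 level of each of the 24 probe sets (rows) on the 3 null (red) and 3 heterozygous (blue) arrays, with the grey band showing the floor guide, 3.49 to 3.77 over the arrays. Il6 is the only row where the null points lie within or above the band and every heterozygous point lies below it.

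Markers of some cell types that can make Il6 had higher means in null callus and those of others did not, and 0 of all these markers were called. All 10 macrophage markers were higher, by a median of 0.52, with 3 (Mrc1, Cd163 and Lyz2) at an unadjusted p under 0.05, and all 10 were above the floor guide on every array. Mrc1, a scavenger receptor gene of macrophages, also separated the groups: the null arrays read 9.68, 8.80 and 9.46, the heterozygous arrays 8.65, 7.94 and 8.77. The mean of the 10 per array, relative to the 6 arrays, ran from -0.33 to 0.93 in null and from -0.77 to 0.13 in heterozygous callus. The 6 keratinocyte markers were all higher, by a median of 1.46, with array means of -0.07 to 1.65 and -1.96 to 0.49. All 5 endothelial markers were higher, by a median of 0.23 (array means 0.07 to 0.27 and -0.39 to 0.19), with Kdr without overlap. For Kdr the lowest null value was 7.024 and the highest heterozygous value 7.013. Of the 6 fibroblast and tendon markers, 5 were higher and Scx lower, with a median of 0.38 (array means -0.16 to 0.25 and -0.37 to 0.17) and Fmod without overlap. Of the 7 bone matrix markers, 3 were higher and 4 lower, with a median of -0.09 (array means -0.16 to -0.0071 and -0.07 to 0.23). The bone sialoprotein gene Ibsp (-0.56, SE 0.16) and the alkaline phosphatase gene Alpl (-0.32, SE 0.10) were lower without overlap. Over all genes, 49.7% were higher in null, 4.49% had an unadjusted p under 0.05 and 4.14% were higher without overlap (5.99% lower without overlap). The other marker lists did not share a direction. The 6 skeletal muscle markers were all lower, with a median of -0.05. Of the T and NK cell markers 2 were higher and 3 lower (median -0.16), and of the adipocyte markers 1 and 2 (median -0.0021). Of the neutrophil markers 8 were higher and 1 lower (median 0.35), with 1 and 6 for erythroid, 2 and 3 for cartilage and 1 and 3 for osteoclast markers. The neutrophil array means ran from -2.52 to 1.68 in null and from -3.12 to 1.39 in heterozygous callus. For erythroid markers they ran from -2.21 to 1.21 and from -1.72 to 1.07. When some array was left out, 8 of the neutrophil and 6 of the erythroid markers changed sign. The part of any of these cell types in the Il6 values was not tested, and in bulk tissue more cells of a type and more RNA per cell cannot be told apart.

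The other ligands showed no such separation. Osm, which codes for oncostatin M, read 4.18, 4.31 and 4.31 in null and 4.11, 4.36 and 4.03 in heterozygous tissue. These values lay 0.48 to 0.78 above the guide and overlapped, with a difference of 0.10 (SE 0.12). Il11, a ligand known for its action on bone-forming cells, read 5.67, 4.75 and 4.94 in null and 4.91, 4.99 and 5.15 in heterozygous tissue, a difference of 0.10 (SE 0.24). Its highest value was null replicate 1 and its lowest null replicate 2, and the difference was -0.11 without null replicate 1 and heterozygous replicate 3. Lif was near background on both probe sets. The first, 1421207_at, read 3.87, 3.45 and 3.14 against 3.64, 3.53 and 3.45 and exceeded the guide on 1 array of each group. The second, 1450160_at, lay under the guide on all 6 arrays, between 2.66 and 3.07, so no fold is given for it.

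Among the receptors, Il6ra, which confers binding of interleukin 6, gave opposite signs on its 2 probe sets. By 1452416_at it read 5.89, 5.44 and 5.66 in null and 5.29, 5.48 and 5.56 in heterozygous tissue, a difference of 0.22 (SE 0.15). By 1422270_a_at, 0.10 to 0.72 above the guide, it read 4.07, 3.69 and 3.87 against 3.89, 4.12 and 4.26, a difference of -0.22 (SE 0.15). The groups overlapped on both, so these values give no direction for Il6ra.

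Il6st, the gp130 gene, had a lower mean in null callus on all 4 probe sets, each by about its SE or less. By 1452843_at, 5.86 to 6.36 above the guide, it read 9.71, 9.67 and 9.56 in null and 9.85, 9.63 and 9.80 in heterozygous tissue, a difference of -0.11 (SE 0.11). This probe set varied little, with a range of 0.29 over all 6 arrays. By 1437303_at it read 9.43, 8.74 and 8.36 against 8.80, 8.68 and 9.23, a difference of -0.06 (SE 0.29). By 1460295_s_at it read 7.26, 7.99 and 7.51 against 8.09, 7.24 and 8.12, a difference of -0.23 (SE 0.30). The widest spread was on 1421239_at, where Il6st read 5.31, 6.37 and 5.77 in null and 6.70, 5.03 and 6.65 in heterozygous tissue, a difference of -0.31 (SE 0.50) that was -0.86 without heterozygous replicate 2. Without null replicate 1 and heterozygous replicate 3, 1421239_at and 1460295_s_at turned to 0.21 and 0.09, and 1437303_at moved to -0.19.

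Lifr, the receptor subunit for leukaemia inhibitory factor, was measured on 3 probe sets that did not share a direction. By 1454984_at it read 8.23, 8.96 and 9.40 in null and 8.51, 8.38 and 8.73 in heterozygous tissue. Null replicate 1 was the lowest of the 6 arrays and the other null arrays were the highest, giving a difference of 0.32 (SE 0.29). Without null replicate 1 the difference was 0.64, and without heterozygous replicate 3 as well it was 0.74. By 1425107_a_at Lifr read 4.76, 5.07 and 4.96 against 4.87, 4.46 and 4.80, a difference of 0.22 (SE 0.15). By 1450207_at, 0.33 to 0.67 above the guide, it read 4.06, 3.98 and 3.96 in null and 4.16, 4.10 and 4.19 in heterozygous tissue. There the null values all lay below the heterozygous values, but by only -0.15 (SE 0.09).

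Osmr, the oncostatin M receptor gene, read 7.998, 7.42 and 7.59 in null and 7.65, 7.25 and 7.73 in heterozygous tissue by 1418674_at, a difference of 0.13 (SE 0.20) that was 0.06 without both marrow-poor arrays. By 1418675_at it read 4.08, 5.004 and 4.49 against 5.004, 3.86 and 5.36, a difference of -0.22 (SE 0.42) that became 0.31 without null replicate 1 and heterozygous replicate 3. The groups overlapped on both. The third probe set, 1459217_at, lay under the guide on all 6 arrays, between 2.47 and 2.74.

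Stat3, the transcription factor that carries the signal to the nucleus, read 10.74, 10.36 and 9.94 in null and 10.43, 10.16 and 10.82 in heterozygous tissue by 1426587_a_at, a difference of -0.13 (SE 0.25). By 1460700_at it read 9.57, 9.07 and 8.98 against 9.41, 9.07 and 9.43, a difference of -0.10 (SE 0.19). The 2 remaining probe sets, 1459961_a_at and 1424272_at, differed by -0.08 (SE 0.10) and 0.09 (SE 0.11), the latter at 0.10 to 0.34 above the guide. The groups overlapped on all 4, and no difference exceeded its SE. Without both marrow-poor arrays the differences of 1426587_a_at and 1460700_at were -0.15 and -0.22.

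Socs3, the feedback inhibitor that STAT3 induces, was among the members that varied most between arrays, and that variation did not follow genotype. By 1416576_at it read 7.96, 6.60 and 6.74 in null and 6.81, 6.48 and 7.63 in heterozygous tissue, a difference of 0.13 (SE 0.44). By 1455899_x_at it read 8.88, 7.62 and 7.58 against 7.55, 7.41 and 8.33, a difference of 0.27 (SE 0.41). By 1456212_x_at it read 7.80, 6.78 and 7.16 against 6.93, 6.69 and 7.58, a difference of 0.18 (SE 0.32). On all 3 probe sets the highest array was null replicate 1, the next was heterozygous replicate 3 and the lowest was heterozygous replicate 2. The range over arrays, 1.11 to 1.49, was several times the difference between groups. Without null replicate 1 alone the 3 differences were between -0.30 and -0.09, and without both arrays they were 0.03, 0.12 and 0.16.

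Across the family, limma's fit over all probe sets called 0 of the 24 at an adjusted p of 0.05 (0% of all 45037 were called), with a lowest adjusted p of 0.775 for Il6 and 0.999 for the next. At an unadjusted p under 0.05 the count was 1 of 24, Il6, against 3.69% of all probe sets. The groups did not overlap with null higher in 1 of 24, Il6, against 3.57% of all, and with null lower in 1 of 24, Lifr by 1450207_at, against 5.38%. Nothing is read from these counts, since the contrast is the one on which the family was chosen. Means were higher in null callus for 11 probe sets (48% of all were higher) and lower for 13, with a median difference of -0.03 against -0.0081 over all probe sets. In 17 of the 24 the spread within groups (SD) was larger than the difference between them. Apart from Il6, no member differed by more than 0.32. Of the 7 genes with more than 1 probe set, 4 (Il6ra, Lifr, Osmr and Stat3) had probe sets in both directions.

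**Figure D2:**
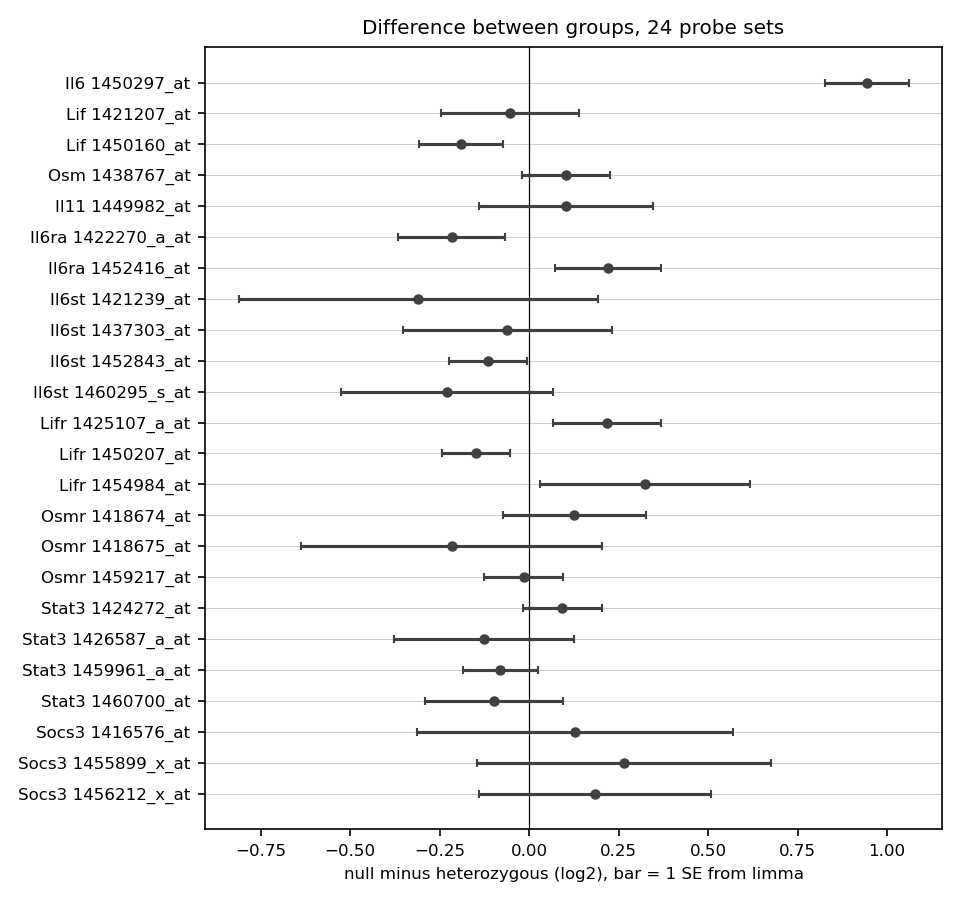
Null minus heterozygous difference on the log2 scale for each of the 24 probe sets, with a bar of 1 SE from limma. Il6 stands at 0.94 (SE 0.12), while the other 23 lie between -0.31 and 0.32 and most bars cross 0.

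Differences between arrays of the same genotype gave 2 recurring orders among the members. In the first, null replicate 1 and heterozygous replicate 3 were the 2 highest arrays, which held for 8 of 24 probe sets against 16.2% of all probe sets. These were all 3 of Socs3, 2 of Stat3 (1426587_a_at and 1460700_at), Il6st by 1437303_at, Osmr by 1418674_at and Il11. They are the arrays with the low marrow score, so these members were highest where neutrophil and red cell transcripts were lowest. Macrophage markers shared this order in 6 of 10 (Csf1r, Adgre1, Cd68, C1qa, C1qb and Msr1), and bone matrix markers in 3 of 7 (Col1a1, Col1a2 and Sparc). In the second, null replicate 2 and heterozygous replicates 1 and 3 were the 3 highest arrays, which held for 4 of 24 against 4.62% of all. These were Il6st by 1421239_at and 1460295_s_at, Osmr by 1418675_at and Stat3 by 1459961_a_at. This second order was picked with the member values known, so its count beside that share is a description only. Those 3 arrays had the lowest 3' minus 5' difference of the beta-actin control probe sets, a sign of RNA integrity, at 0.39, 0.48 and 0.46, against 0.69 and 0.52 on null replicates 1 and 3 and 0.64 on heterozygous replicate 2. The same difference for the Gapdh control probe sets gave another order: it was 0.0225, 0.0704 and 0.0470 on those 3 arrays and 0.0632 on null replicate 3, with 0.240 and 0.165 on null replicate 1 and heterozygous replicate 2. Il6st, Osmr and Stat3 thus had probe sets in each order, so the level of each of these genes ranked the arrays differently depending on the probe set read. Stat3 by 1459961_a_at fell in the second order by a near tie, with null replicate 2 at 6.6525 and null replicate 3 at 6.6492. The part of marrow content, macrophage content or RNA integrity in these values was not tested.

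**Figure D3:**
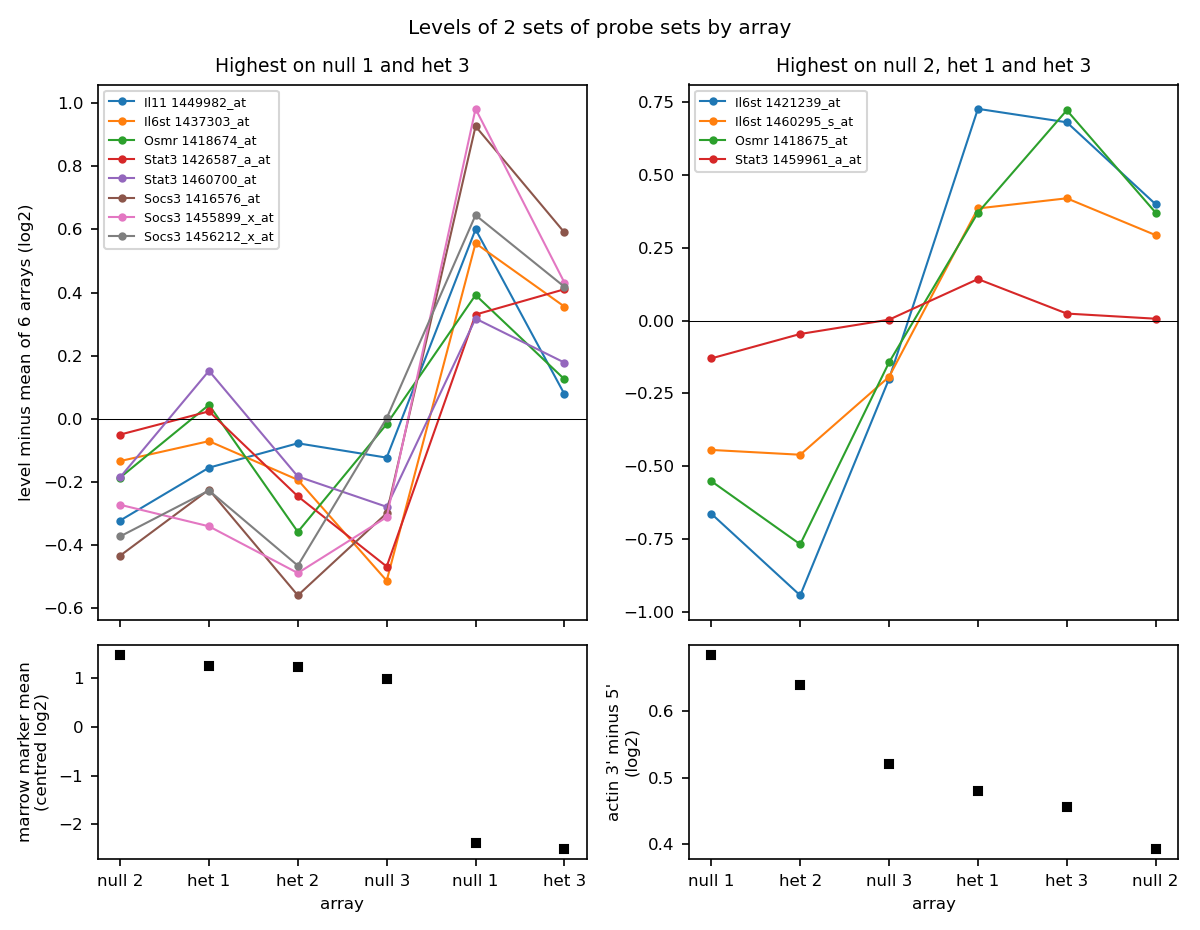
Level of each probe set minus its mean over 6 arrays (log2, upper panels) for the 8 probe sets highest on null replicate 1 and heterozygous replicate 3 (left) and the 4 highest on null replicate 2 and heterozygous replicates 1 and 3 (right). The lower panels give the marrow score (left) and the actin 3' minus 5' difference (right) of the same arrays, which are low where the upper panels are high; lines only join points of a probe set.

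The rest of the pathway was read from a list of 44 other genes, 38 of them measured and given 1 probe set each, the one with the highest mean. Limma's fit called 0 of the 38 (0% of all 18193 genes), and 4 had an unadjusted p under 0.05, against 4.49% of all genes. The groups did not overlap in 2 genes with null higher (4.14% of all) and 3 with null lower (5.99%). The list's median difference was 0.14, against -0.0017 over all genes, with 26 higher (49.7% of all genes were) and 12 lower.

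Among the other ligands and ligand partners, 3 of 4 measured genes were higher in mean and 1 lower, but Il31, 1 of the 3, lay under the guide on all 6 arrays. The lower gene, Ctf1, codes for cardiotrophin 1, which signals through Lifr and gp130. It read 7.16, 7.32 and 6.92 in null and 7.48, 7.74 and 7.54 in heterozygous tissue. All null values were below all heterozygous values, with a difference of -0.46 (SE 0.14) that stayed between -0.55 and -0.35 when any array was left out. Ebi3, a ligand subunit also found in other cytokines, differed by 0.26 (SE 0.20) and the cardiotrophin-like Clcf1 by 0.20 (SE 0.24), which ranged from -0.03 to 0.36 when single arrays were left out. The 3 other receptors were all lower in mean, by -0.40 (SE 0.22) for Cntfr, the ciliary neurotrophic factor receptor, -0.15 (SE 0.18) for Il31ra, above the guide on 1 array, and -0.11 (SE 0.25) for Il27ra; the last 2 changed sign when some array was left out. Of the 5 kinases and STAT factors, 2 were higher and 3 lower, with Jak1 at 0.28 (SE 0.20), Jak2 at 0.15 (SE 0.19) and Stat5b at -0.22 (SE 0.27), which turned to 0.10 without both marrow-poor arrays. Stat5a and Tyk2 differed by -0.16 (SE 0.33) and -0.04 (SE 0.11).

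The 10 regulators and sheddases were all higher in mean in null callus, by a median of 0.16, with 0 called and 1, Pias1, at an unadjusted p under 0.05, and 4 (Adam17, Socs1, Cish and Ptpn11) changed sign when some array was left out. Pias1, an inhibitor of STAT factors, read 7.94, 7.99 and 7.97 in null and 7.75, 7.76 and 7.70 in heterozygous tissue, a difference of 0.23 (SE 0.09) without overlap. The phosphatase genes Ptpn2 and Ptpn6 differed by 0.17 (SE 0.12) and 0.16 (SE 0.11). Of the 16 genes known to be induced or repressed by STAT3 or gp130 signalling, 11 were higher in mean and 5 (Bcl6, Cebpb, Sost, Junb and Hp) lower. Since the list mixes induced and repressed genes, these directions are not a reading of pathway activity. When some array was left out, 8 of the 16 changed sign. The transcriptional repressor Bcl6 read 8.04, 8.01 and 8.36 in null and 9.02, 8.92 and 9.18 in heterozygous tissue, a difference of -0.90 (SE 0.14). Cebpb, which codes for a factor that also binds the Il6 promoter, read 9.77, 9.47 and 9.46 against 9.87, 9.85 and 10.10, a difference of -0.37 (SE 0.13). Both were lower without overlap, on the side opposite to Il6, and the kinase gene Pim1 was higher without overlap, at 0.21 (SE 0.12), and at 0.08 without both marrow-poor arrays. Mcl1, a survival factor of the Bcl2 family, differed by 0.29 (SE 0.16). The acute-phase gene Saa3 had the largest difference of the list, 1.72, with an SE of 0.97: it read 9.24, 5.88 and 7.59 in null and 7.34, 5.38 and 4.83 in heterozygous tissue, and the difference was 0.89 without null replicate 1 and 0.37 without both marrow-poor arrays. Saa3 was named after its values were seen.

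**Figure D4:**
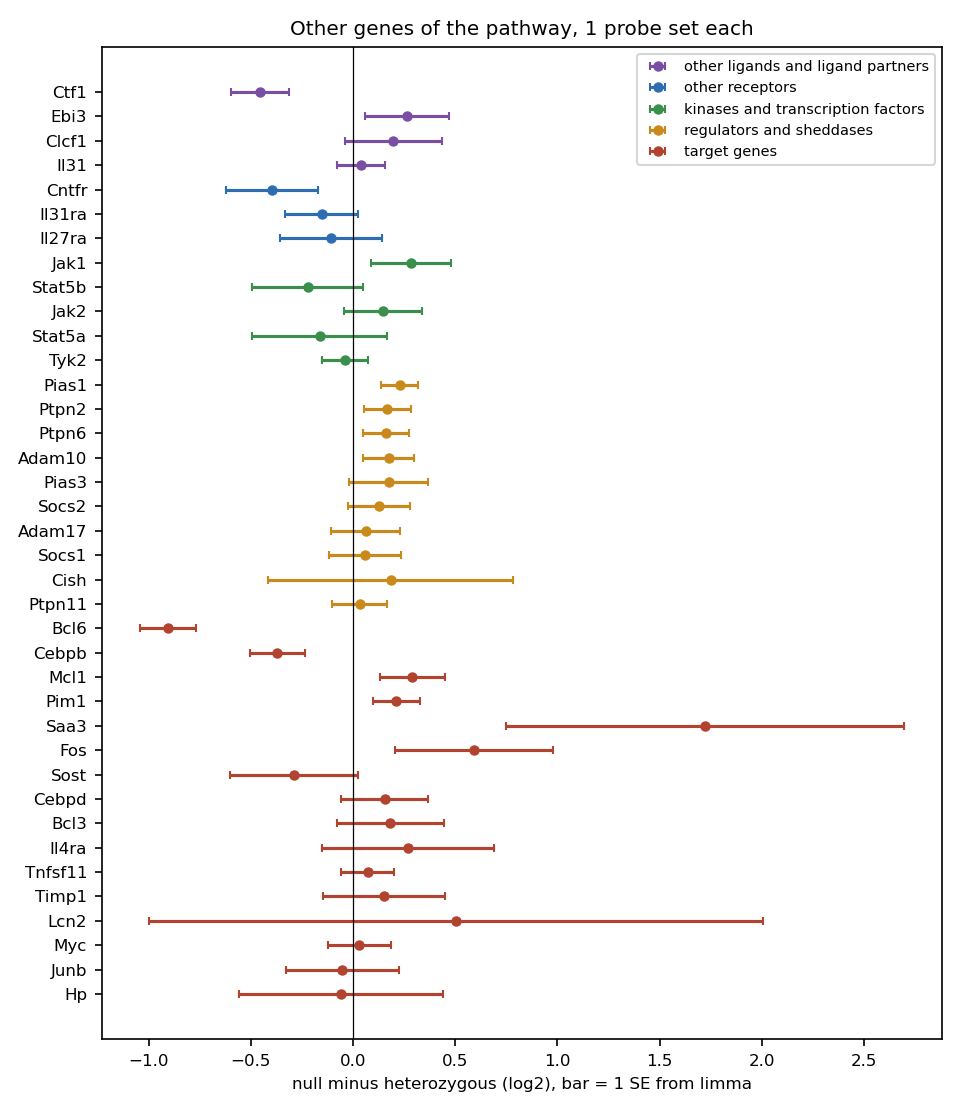
Null minus heterozygous difference (log2) of the 38 other pathway genes, coloured by group, with a bar of 1 SE from limma. Bcl6 (-0.90), Ctf1 (-0.46) and Cebpb (-0.37) lie to the left with short bars, and Saa3 (1.72) lies far to the right with a long one.

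The genes whose profile over the 6 arrays was most like that of Il6 were found by the mean absolute difference between centred log2 profiles, over 13310 genes with a mean above the floor guide. The 5 nearest were Pla2g7 (0.098), Bst1 (0.11), Prkcd (0.15), Prg4 (0.15) and Znf41-ps (0.15), against a median of 0.48 over all these genes. Pla2g7, which codes for a platelet-activating factor acetylhydrolase, read 8.73, 8.70 and 8.97 in null and 8.04, 8.08 and 8.03 in heterozygous tissue. Bst1, an ectoenzyme gene of bone marrow stroma, read 4.14, 4.12 and 4.29 against 3.62, 3.15 and 3.26, with 1 heterozygous value above the guide. Prg4, the gene of the joint lubricant lubricin, read 9.72, 9.39 and 9.85 against 9.16, 9.10 and 8.66. Selection on likeness to Il6 fixes the direction of these genes, so they add no evidence on it.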

How the data were processed

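Total RNA from callus was hybridised to Affymetrix Mouse 430_2 arrays, per the labels' protocols. The authors deposited 1 value per probe set and array, taken to be log2 from its range; its summarisation and normalisation, not given in the sources used here, remain unknown. The array medians nearly coincide, so a shift common to all genes could not be seen, and low values are compressed towards background. The 64 control probe sets were left out, except for the 3' and 5' probe sets of beta-actin and Gapdh. Symbols came from the platform annotation, and 10 of 10 members matched RefSeq by gene identifier.

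Each probe set was fitted with limma 3.58.1 under R 4.3.3 (lmFit, eBayes, null minus heterozygous, two-sided, Benjamini-Hochberg over 45037 probe sets, threshold 0.05). The fit was run on simulated data with planted changes and independent noise for each probe set. The simulation held no array differences shared by many probe sets, such as marrow content. It therefore gives no assurance on the counts called here. The number of arrays limits the precision. The members, lists, floor guide and alternatives were chosen with earlier results of these data known. Named genes are the 10 members, up to 3 per pathway group with the lowest unadjusted p, others named for a small count or a feature, and the 5 genes nearest to Il6. Alternatives were quantile normalisation, median centring, a marrow score as covariate, array weights, a robust prior with an intensity trend, a filter at the floor guide, other floors and leaving out arrays.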

Additional observations from a re-analysis of the deposited data

How the results depend on the processing

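No member and no pathway gene passed the adjusted threshold of limma under any normalisation, weighting, filter, covariate or left-out array tried. In the main fit the unadjusted threshold gave 1 of 24 member probe sets (3.69% of all probe sets) and 4 of 38 pathway genes (4.49% of all genes). Il6 kept its direction in each of the fits tried. It is not among the probe sets tested under the filter at the floor guide. Member probe sets without overlap of the groups numbered 2 with all arrays and between 3 and 8 when single arrays were left out (6 with null replicate 1 left out, 4 for null replicate 2, 8 for heterozygous replicate 2 and 4 for heterozygous replicate 3). The shares of all probe sets were then 22.1%, 19.2%, 16.8% and 24%. Leaving out null replicate 3 or heterozygous replicate 1 gave 3, with a share of 15.5% in each case. Quantile normalisation also gave 3, and the share of all probe sets was not computed for it. The count was 9 of 24 without both marrow-poor arrays, where 39.4% of all probe sets did not overlap. Of the 24 differences, 11 changed sign when some array was left out, 7 of them without null replicate 1, 1 with quantile normalisation and 0 with median centring or the marrow score. Lifr by 1454984_at reached an unadjusted p under 0.05 with array weights, without null replicate 1 and without both marrow-poor arrays, and Il6st by 1421239_at without heterozygous replicate 2. The shares of all probe sets at that threshold were not computed for these fits, so nothing is read from them. At the 99th percentile floor, 15 member probe sets were above it on all arrays. No paired analysis was possible because the labels give no replicate numbers shared between groups and do not tie samples to litters.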
